A study of Rattus norvegicus with 12 samples.

Results

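The mitochondrial respiratory chain and ATP synthase were followed here through the nuclear genes that encode them, in rat lung. Members were all genes whose annotated symbol begins with Nduf, Uqcr, Sdh or Atp5, or with Cox4 to Cox8, apart from the muscle isoforms Cox6a2 and Cox7a1. The rule found 88 genes among the 14217 genes measured, on 99 of 20826 probe sets that carry 1 symbol. No measured value entered the rule, though the members were chosen with earlier results of these data known. A further 7 probe sets of such genes carry a second symbol as well and were not used.

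The lungs came from wild-type male Sprague Dawley rats of 250 to 350 g, on 12 Affymetrix arrays, 3 in each of 4 groups. BD rats were made brain dead with a balloon catheter inflated outside the dura, and received no agonist. SEW rats received 0.1 mg/kg of SEW-2871, an agonist of the sphingosine 1-phosphate receptor S1P1, intravenously and without brain death. BD/SEW rats received that dose 15 min after brain death, and sham rats are the controls. Whether a sham operation preceded the injection in SEW rats is not stated, and no label ties an array to a numbered animal, so p-values measure the spread between arrays. Values are log2 probe set values, and a difference of 1 between groups is a doubling.

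Complex I (NADH dehydrogenase) and complex II (succinate dehydrogenase) pass electrons to ubiquinone, complex III passes them on to cytochrome c, and complex IV (cytochrome c oxidase) gives them to oxygen. Complexes I, III and IV pump protons across the inner mitochondrial membrane, and ATP synthase, or complex V, lets them flow back and makes ATP. A few core subunits of complexes I, III, IV and V are encoded by mitochondrial DNA, while all other subunits and all assembly factors are nuclear. In the lung, cells with many mitochondria include type II pneumocytes and ciliated airway cells, and heart muscle holds far more mitochondria than lung.

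By complex, 40 members belonged to complex I (6 core subunits, 28 accessory subunits and 6 assembly factors) and 8 to complex II (4 subunits and 4 assembly factors). Complex III had 7, complex IV 17 and ATP synthase 16 members. These make 76 subunits and 10 assembly factors, besides the ATP synthase inhibitor Atp5if1 and the pseudogene Cox6c-ps1. Of the 13 subunits encoded by mitochondrial DNA, 0 were measured under their own symbol. Transcripts of this family have many processed pseudogenes, and probes may detect these too.

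In any of the 6 comparisons 5 of the 88 members passed (5.68%), where 13.4% of all genes did, and 83 members passed in none. Of the 5, 4 were assembly factors, the proteins that help to build a complex without staying in it. Below are the promoter windows of the 4 assembly factors that passed, shown because most of the members that passed are these genes. Each runs 5′ to 3′ on the strand of its gene, 250 bases before to 50 after the start, from RefSeq on the rat build GRCr8. Capitals mark a match on either strand to GCGC, any base and TGCGC in a row, the letters of a site for NRF1, a transcription factor of respiratory chain genes.
Sdhaf1, chr1:94704562-94704861, minus strand: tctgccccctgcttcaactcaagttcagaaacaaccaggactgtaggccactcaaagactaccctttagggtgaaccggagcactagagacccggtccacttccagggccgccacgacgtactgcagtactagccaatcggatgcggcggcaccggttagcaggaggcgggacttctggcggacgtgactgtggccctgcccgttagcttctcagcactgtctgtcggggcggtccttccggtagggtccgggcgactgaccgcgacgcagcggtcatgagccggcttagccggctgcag
Sdhaf4, chr9:33912764-33913063, minus strand: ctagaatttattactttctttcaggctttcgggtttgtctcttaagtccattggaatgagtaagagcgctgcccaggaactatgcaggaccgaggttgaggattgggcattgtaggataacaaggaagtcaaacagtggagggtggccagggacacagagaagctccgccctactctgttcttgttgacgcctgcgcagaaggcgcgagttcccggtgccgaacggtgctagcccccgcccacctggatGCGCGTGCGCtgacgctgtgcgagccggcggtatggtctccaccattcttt
Sdhaf3, chr4:36066713-36067012, plus strand: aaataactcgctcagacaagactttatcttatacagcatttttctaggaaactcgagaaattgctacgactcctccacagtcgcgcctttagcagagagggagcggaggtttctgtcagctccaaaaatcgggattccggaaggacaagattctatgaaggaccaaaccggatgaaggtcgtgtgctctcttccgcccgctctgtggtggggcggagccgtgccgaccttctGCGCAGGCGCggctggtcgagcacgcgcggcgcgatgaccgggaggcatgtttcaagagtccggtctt
Ndufaf7, chr6:21871916-21872215, minus strand: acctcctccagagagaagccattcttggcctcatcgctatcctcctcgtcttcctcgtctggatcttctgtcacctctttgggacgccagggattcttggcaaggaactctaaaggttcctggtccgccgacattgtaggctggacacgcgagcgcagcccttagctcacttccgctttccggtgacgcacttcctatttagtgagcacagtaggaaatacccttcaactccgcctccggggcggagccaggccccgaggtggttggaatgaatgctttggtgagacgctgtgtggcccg

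Sdhaf4 and Sdhaf3 hold these letters, and Sdhaf1 and Ndufaf7 do not. A window was found for 80 of the 88 members, and 17 of them (21.25%) hold the NRF1 letters on either strand, against 4.71% of all 27457 promoter windows of that length. AAGATGGCG, the letters of a YY1 site, stand in 11 members (13.75%) and in 1.93% of all windows. CCGGAAGT, those of an ETS site, stand in 8 of the 80 members and in 4.01% of all windows. TCAAGGTCA, read by the estrogen-related receptors, stands in 2 members (2.5%) and in 0.41% of all windows, and TGACGTCA, the cyclic AMP response element, in 3 members (3.75%) and 1.91% of all windows. ACGTG, the core read by hypoxia-inducible factors, stands in 21 members (26.25%) and in 19.73% of all windows. Both strands were read for each, and ACGTG and TGACGTCA can share letters where they overlap. A match of letters is a description of the window and not a binding site.

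Members were bright probe sets. Their median over all arrays was 11.03, against 8.47 for all genes, and 65 of 88 lay above the 75th percentile of genes. Within each complex the probe sets with the highest means were Ndufa1 (12.62), a small membrane subunit of complex I, Sdha (11.38), the flavoprotein of complex II, Uqcr10 (12.1) of complex III, Cox4i1 (12.97) of complex IV and Atp5f1b (12.75), the catalytic beta subunit of ATP synthase. The lowest were Ndufaf1 (5.02), Sdhaf3 (6.14), Uqcrc1 (11.35), Cox7b2 (4.31), a testis isoform, and Atp5me (9.99). Brightness depends on the probes, so these levels do not rank the transcripts. The range over the 12 arrays had a median of 0.65 log2 units in the members and in all genes, and 8 members ranged over more than 1 unit.

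Markers of other tissues differed between arrays, and by more than the members did. The mean of 19 measured heart muscle markers was 6.20, 11.37 and 7.15 in the BD arrays, 5.86, 6.54 and 7.42 in the SEW arrays and 6.04, 6.41 and 8.02 in the BD/SEW arrays, against 10.41, 9.94 and 9.39 in the sham arrays. All 19 were lower in every SEW array than in every sham array, and all 19 were highest in BD replicate 2. The mean of 11 adipose markers was 6.74, 9.28 and 6.85 in the BD arrays, 7.05, 7.03 and 6.88 in the SEW arrays and 6.95, 6.86 and 7.49 in the BD/SEW arrays, against 9.73, 8.91 and 8.67 in the sham arrays. Lung markers were present throughout, with the mean of 9 alveolar markers between 12.79 and 13.43 and that of 5 endothelial markers between 12.02 and 12.48. The mean of 5 airway markers was 10.11, 12.48 and 11.28 in the BD arrays, 8.98, 11.11 and 11.17 in the SEW arrays and 9.82, 9.77 and 10.48 in the BD/SEW arrays, against 12.65, 12.52 and 12.72 in the sham arrays.

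The respiratory chain as a whole varied mainly within the BD group. After each member's mean over the 12 arrays was subtracted, the median member stood at -0.23, 0.21 and -0.13 in the BD arrays, at 0.15, -0.01 and 0.04 in the SEW arrays and at -0.03, -0.03 and -0.09 in the BD/SEW arrays, against 0.09, 0.01 and -0.06 in the sham arrays. BD replicate 2 was the highest of the 12 arrays in 49 members (55.7%, against 7.79% of all genes), and BD replicate 1 the lowest in 45 (51.1%, against 7.18%). For ATP synthase alone the 3 BD arrays stood at -0.27, 0.37 and -0.16. BD replicate 2 is also the array with the highest heart markers, and the part of heart tissue in its values was not tested. The sham arrays, whose heart marker means exceeded those of every SEW and BD/SEW array, did not all stand above the SEW arrays. Sham and SEW also differed in treatment and in adipose and airway markers, and the part of heart tissue was not tested there either.

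**Figure D1:**
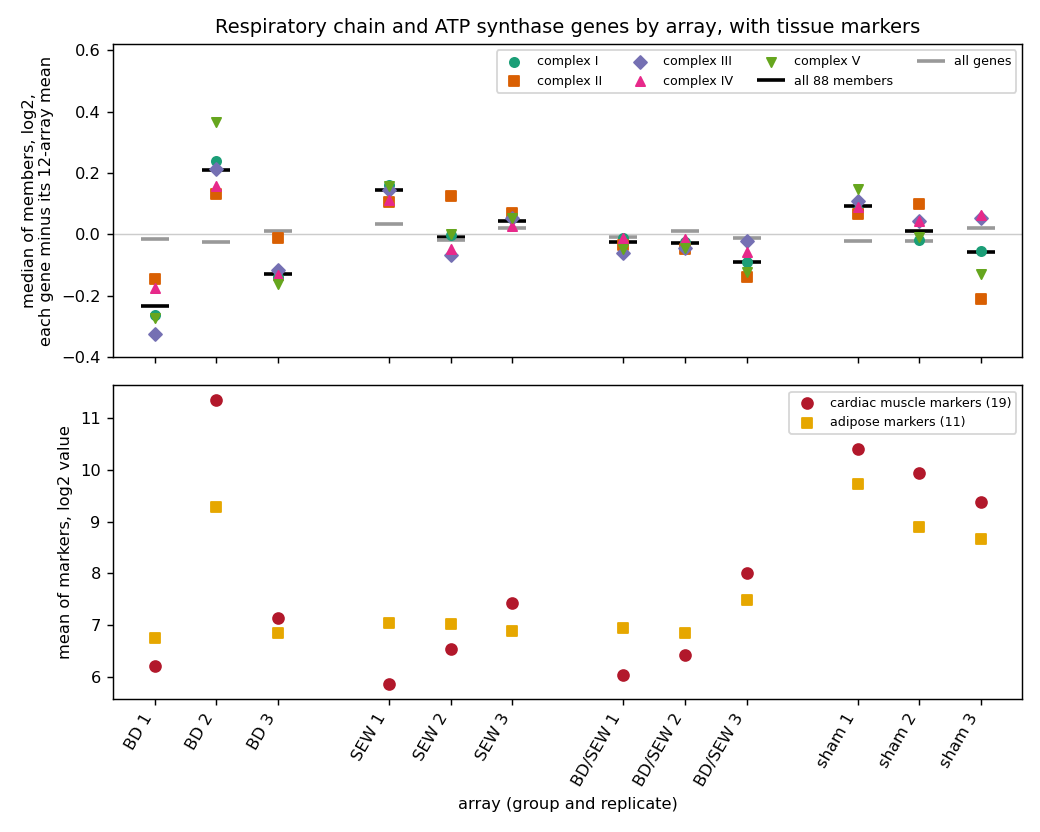
Top, centred median in log2 units of the 88 members (black bars), of each complex (symbols) and of all genes (grey bars), and below, mean log2 value of the 19 heart and 11 adipose markers, for each of the 12 arrays by group. BD replicate 2 has the highest member median, 0.21, and the highest heart marker mean, 11.37, while BD replicates 1 and 3 have the lowest member medians.

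The first comparison asks what brain death alone did to the respiratory chain. In BD against sham 0 of the 88 members passed, where 0.591% of all genes did, and 0 members had an unadjusted p under 0.05 in limma, against 11.01% of all genes. The fitted differences were small: 65 members were lower and 23 higher, against 49.12% of all genes lower, with a median of -0.05 against 0.00 for all genes. For 82 of 88 members the 95% interval of the difference lay within 1.5-fold in either direction, and for 87 within 2-fold. Of the 76 subunits 60 were lower, and every complex except complex II had more members lower than higher. In 2 members the groups did not overlap, where 15.7% of all genes had groups without overlap.

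Atp5f1b, the catalytic subunit of ATP synthase, shows the shape of this comparison. It was 12.46, 13.19 and 12.56 in the BD arrays, against 12.97, 12.89 and 12.53 in the sham arrays. BD replicate 2 stood above every sham array and the other BD arrays near or below the lowest sham array. Cox7b, a small subunit of complex IV, was 11.22, 12.43 and 11.05 in the BD arrays, against 12.01, 11.79 and 11.77 in the sham arrays, a difference of -0.29 ± 0.27 (SE) that did not pass (adjusted p = 0.77). Again BD replicate 2 was highest and its group mates lowest.

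The other members named in this comparison did not pass either. Ndufa4l2, a hypoxia-inducible paralog of the complex IV subunit Ndufa4, was 8.68, 8.65 and 8.78 in the BD arrays, against 8.37, 8.37 and 8.52 in the sham arrays. All BD arrays lay above all sham arrays, but the difference of 0.28 ± 0.13 did not pass (adjusted p = 0.461). Sdhaf3 gave -0.31 ± 0.16, Ndufs4, an accessory subunit of complex I, -0.20 ± 0.12, and Sdhc, a membrane anchor of complex II, 0.19 ± 0.12, none of which passed.

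Leaving out BD replicate 2 changed this comparison. The member median became -0.18, with 76 members lower and 12 higher, and 2 members passed, where 1.6% of all genes did. Cox7b differed by -0.72 ± 0.10 (adjusted p = 0.006) and Cox8b, the heart and muscle isoform of subunit 8, by -2.59 ± 0.41 (adjusted p = 0.0105). With sham replicate 3 and SEW replicate 2, which had low array weights, left out as well, the median was -0.23 and 11 members passed, where 3.51% of all genes did. Of these, 10 were lower: the F1 subunits Atp5f1a and Atp5f1b, Atp5mc3 of the proton-carrying ring, Atp5mpl, Cox7b, Cox8b, Ndufa4, the complex I members Ndufa11 and Ndufs1, and Uqcrq of complex III. Atp5f1b differed by -0.42 ± 0.08 (adjusted p = 0.0266), Ndufs1, an iron-sulfur core subunit, by -0.47 ± 0.10 (adjusted p = 0.0361) and Uqcrq by -0.47 ± 0.09 (adjusted p = 0.0279). Cox7a2l, which takes part in joining complexes III and IV, was higher by 0.40 ± 0.08 (adjusted p = 0.0351). These sets were seen only after the arrays had been compared, and the sham arrays that remain carry the heart markers that the BD arrays then lack, so heart tissue and brain death cannot be told apart here. In bulk tissue, fewer cells of a type and less RNA per cell cannot be told apart either.

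The second comparison asks what the agonist did without brain death. In SEW against sham 3 members passed, where 5.84% of all genes did: the complex II assembly factors Sdhaf1, which fell, and Sdhaf4, which rose, and the complex I subunit Ndufa8, which rose. Of all genes 3.4% rose and 2.43% fell. Of the 88 members 53 were higher and 35 lower, with a median of 0.04 against 0.02 for all genes, and 12 members had an unadjusted p under 0.05, against 25.65% of all genes. The groups did not overlap in 27 members, where 27.1% of all genes did not overlap. Of these members 18 were higher, against 16.4% of all genes, and 9 lower, against 10.6% of all genes. The 95% interval lay within 1.5-fold for 74 of 88 members.

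Sdhaf1, which in human and yeast cells helps to place iron-sulfur clusters in the subunit Sdhb, was 10.44, 10.4 and 10.29 in the SEW arrays, against 10.99, 11.07 and 11.24 in the sham arrays. All SEW arrays lay below all sham arrays, and below the 6 arrays of the other groups too. The difference was -0.72 ± 0.12 (SE, limma, adjusted p = 0.00888, n = 3 per group).

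Sdhaf4, which binds the flavin-loaded subunit Sdha and aids its joining to Sdhb, was 9.57, 9.73 and 9.26 in the SEW arrays, against 9.04, 8.9 and 8.71 in the sham arrays. The SEW arrays were again apart from the other 9 arrays, here above them. The difference was 0.64 ± 0.13 (limma, adjusted p = 0.0222), opposite in sign to that of Sdhaf1. It kept its call in 2 of 6 fits that each left out an array, and the adjusted p was 0.12 with the compared arrays alone.

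Ndufa8, an accessory subunit of complex I on the side of the intermembrane space, was 10.96, 10.86 and 10.57 in the SEW arrays, against 10.34, 10.35 and 9.91 in the sham arrays. The groups did not overlap, and the low sham array was replicate 3. The difference was 0.60 ± 0.14 (limma, adjusted p = 0.0391), and it kept its call in 1 of 6 fits that each left out an array.

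The rest of complex II did not pass. The 4 subunits Sdha, Sdhb, Sdhc and Sdhd averaged 11.45 ± 0.03, 11.47 ± 0.10, 11.2 ± 0.10 and 11.33 ± 0.09 in SEW, against 11.37 ± 0.19, 11.27 ± 0.42, 11.02 ± 0.19 and 11.32 ± 0.18 in sham (mean ± SD, n = 3). Of the assembly factors that did not pass, Sdhaf2, which loads flavin onto Sdha, averaged 9.81 ± 0.11 in SEW, against 9.57 ± 0.13 in sham.

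In complexes III, IV and V no member passed in limma, and over all complexes 6 of 76 subunits (7.89%) had an unadjusted p under 0.05, against 25.65% of all genes. Ndufa4l2 was 8.87, 8.82 and 8.75 in the SEW arrays, against 8.37, 8.37 and 8.52 in the sham arrays, without overlap (0.39 ± 0.13, adjusted p = 0.0913). Cox6a1, the widely expressed isoform of subunit 6a, was 12.02, 11.81 and 11.76 in the SEW arrays, against 11.67, 11.61 and 11.39 in the sham arrays (0.31 ± 0.12, adjusted p = 0.14). Both had all SEW arrays above all sham arrays. In complex I, Ndufb8 (0.44 ± 0.15, adjusted p = 0.0984) and Ndufa6 (0.29 ± 0.10, adjusted p = 0.0905) did not pass either.

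In this comparison the means of the heart and of the adipose markers stood lower in every SEW array than in every sham array, while the mean of the members did not. With the mean of the heart markers as a covariate the member median became 0.27, and with that of the adipose markers 0.34, and 0 members passed in either fit. In these fits Sdhaf1 had an adjusted p of 0.12 and 0.197. The covariate and the groups overlap little, so these fits extend the relation seen within the groups.

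**Figure D2:**
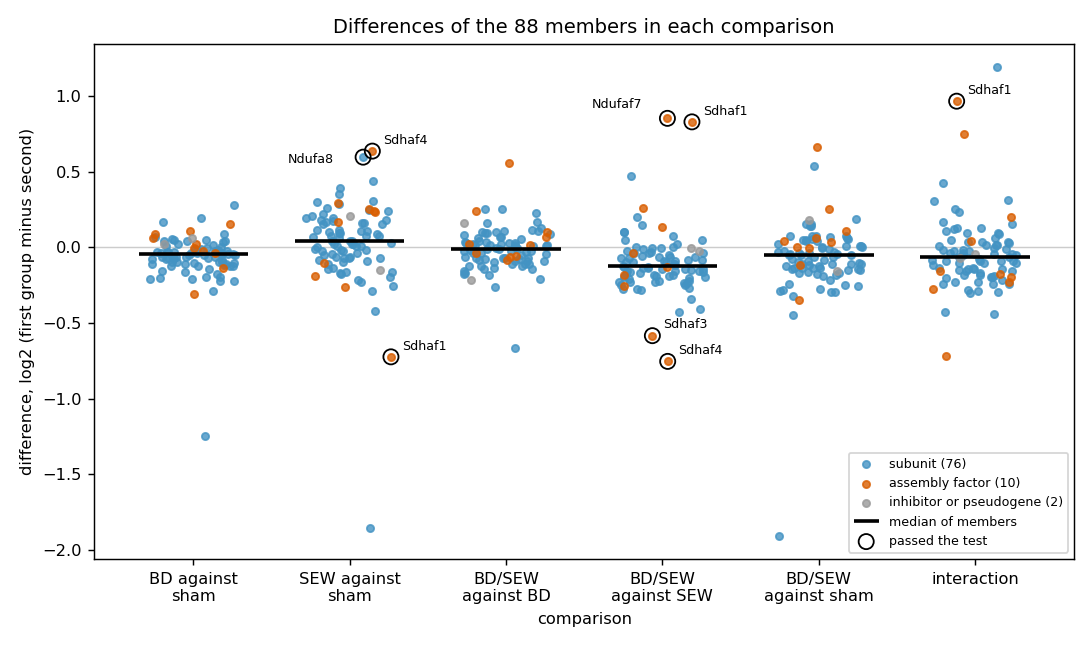
Fitted log2 difference of each of the 88 members in the 6 comparisons, with subunits, assembly factors and other members in separate colours, the median as a bar and a ring around members that passed. Rings fall on Sdhaf1, Sdhaf4 and Ndufa8 in SEW against sham, on Sdhaf1, Ndufaf7, Sdhaf3 and Sdhaf4 in BD/SEW against SEW, and on Sdhaf1 in the interaction.

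The third comparison sets the agonist against no agonist after brain death. In BD/SEW against BD 0 of 88 members passed, where 0.0141% of all genes did, and 2 had an unadjusted p under 0.05 in limma, against 5.44% of all genes. The median was -0.01, with 41 members higher and 47 lower. Groups did not overlap in 4 members, where 12.4% of all genes did not overlap. Ndufaf7 was 9.03, 8.61 and 8.78 in the BD/SEW arrays, against 7.96, 8.19 and 8.6 in the BD arrays (0.56 ± 0.18, adjusted p = 0.813). The lowest BD/SEW array was just above the highest BD array. Without BD replicate 2 the median was 0.14, with 74 members higher, and without BD replicate 1 it was -0.13.

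The fourth comparison asks what brain death did where the agonist was given, a comparison in which heart markers hardly separated the groups. Of the 19 heart markers, 18 overlapped between BD/SEW and SEW. In BD/SEW against SEW 4 members passed, where 9.79% of all genes did: Sdhaf1 and Ndufaf7 rose, and Sdhaf4 and Sdhaf3 fell. Of all genes 4.75% rose and 5.04% fell. All 4 are assembly factors, of 10 measured. Of the 76 subunits 0 passed in limma, and 6 (7.89%) had an unadjusted p under 0.05, against 23.8% of all genes.

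Sdhaf1 was 11.43, 11.16 and 11.03 in the BD/SEW arrays, against 10.44, 10.4 and 10.29 in the SEW arrays. The groups were far apart relative to their spread, with a difference of 0.83 ± 0.12 (limma, adjusted p = 0.00122). Sdhaf4 was 8.83, 8.75 and 8.72 in the BD/SEW arrays, against 9.57, 9.73 and 9.26 in the SEW arrays. It was lower in every BD/SEW array than in any SEW array, with a difference of -0.75 ± 0.13 (limma, adjusted p = 0.00408). Both calls held in all 6 fits that left out 1 array and in the 11 other alternatives.

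Ndufaf7, a methyltransferase that acts in complex I assembly, was 9.03, 8.61 and 8.78 in the BD/SEW arrays, against 7.72, 8.23 and 7.91 in the SEW arrays. No array of a group reached the other group, and the difference was 0.85 ± 0.18 (limma, adjusted p = 0.0117). A second, dimmer probe set of the gene was 7.45, 7.05 and 7.2 in the BD/SEW arrays, against 6.47, 7.37 and 6.76 in the SEW arrays, where the groups overlap. With the mean of both probe sets the difference was 0.61 and did not pass (adjusted p = 0.058).

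Sdhaf3, which with Sdhaf1 protects the iron-sulfur clusters of the Sdhb subunit in yeast and flies, was 6.04, 5.84 and 5.82 in the BD/SEW arrays, against 6.39, 6.74 and 6.32 in the SEW arrays. The probe set is dim, at about the 21st percentile of genes, and the groups did not overlap. The difference was -0.58 ± 0.16 (limma, adjusted p = 0.0367), and it kept its call in 1 of 6 fits that left out an array.

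**Figure D3:**
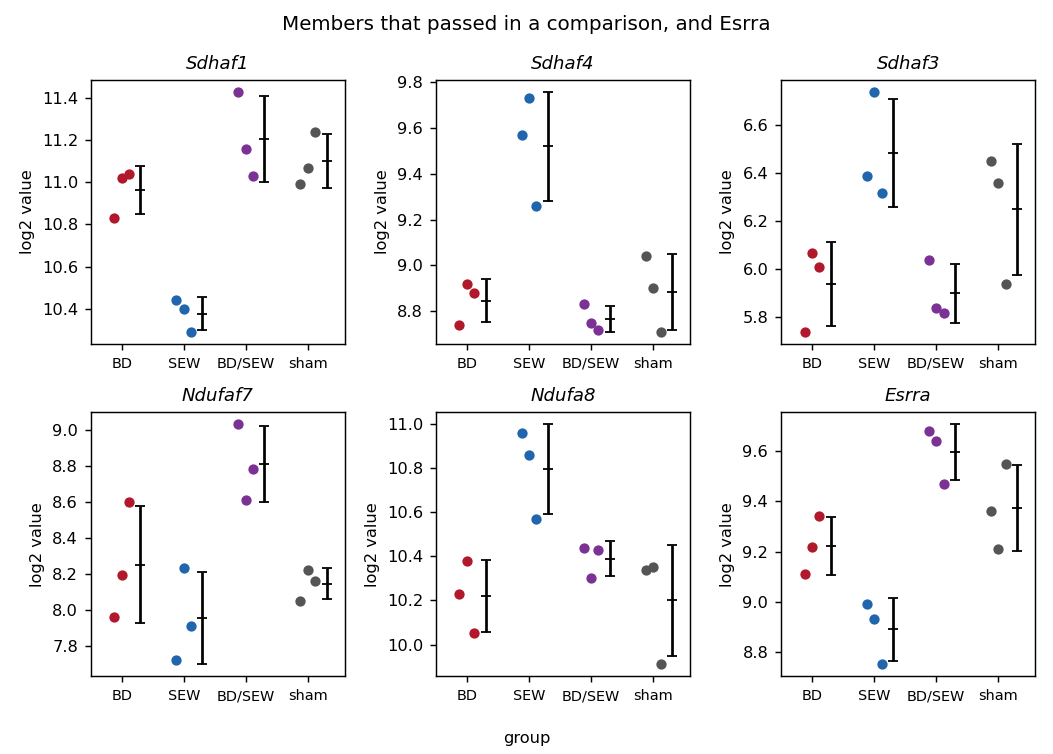
Log2 value of each array, by group, for the 5 members that passed in a comparison and for Esrra, with the mean and SD of each group (n = 3) beside the points. The SEW arrays lie apart from the other 9 arrays in Sdhaf1 (10.29 to 10.44), Sdhaf4, Ndufa8 and Esrra. The BD/SEW arrays lie apart in Ndufaf7, narrowly, with 8.61 in BD/SEW replicate 2 and 8.6 in BD replicate 3.

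Subunits stood slightly lower in BD/SEW than in SEW, none past the test. Of the 88 members 73 were lower and 14 higher, against 51.19% of all genes lower, with a median of -0.12 against -0.01 for all genes and -0.05 for genes above the 75th percentile of level. Among ATP synthase members 15 of 16 were lower and 0 higher (median -0.14), and in complex I 34 of 40 were lower (median -0.14). In 38 members the groups did not overlap, where 31.8% of all genes did not. In 33 of these all BD/SEW arrays lay below all SEW arrays (37.5% of members, against 18.6% of all genes), and in 5 above (5.68%, against 13.2% of all genes). The 88 values come from the same 6 arrays and are not independent, so these counts carry no test. SEW replicate 1, the array highest in 18 members (20.45%, against 13.48% of all genes), added to the shift: without it the median was -0.08.

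Among the subunits, Atp5pd of the ATP synthase stalk gave -0.27 ± 0.12 (adjusted p = 0.178), Uqcrc2, a core protein of complex III, -0.28 ± 0.13 (adjusted p = 0.197), and Ndufb8 -0.43 ± 0.15 (adjusted p = 0.0995). Cox5a had a positive difference, with 7.59, 7.73 and 7.7 in the BD/SEW arrays, against 7.24, 6.99 and 7.38 in the SEW arrays (0.47 ± 0.21, adjusted p = 0.202). None of these 4 passed. In 67 of 88 members the 95% interval lay within 1.5-fold, and in 84 within 2-fold. Leukocyte markers had a higher mean in BD/SEW, at 10.73 to 10.78, than in SEW, at 9.89 to 10.57, and endothelial markers a lower one, at 12.19 to 12.23 against 12.41 to 12.48, and their part in the shift was not tested.

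In BD/SEW against sham 0 members passed, where 2.87% of all genes did, and 6 had an unadjusted p under 0.05 in limma, against 17.55% of all genes. The median was -0.05, with 57 members lower and 30 higher, and 18 members had groups without overlap, where 25.9% of all genes did. Closest to the threshold was Ndufa4l2, at 9.28, 8.8 and 8.8 in the BD/SEW arrays, against 8.37, 8.37 and 8.52 in the sham arrays (0.54 ± 0.13, adjusted p = 0.0517). Its sham arrays were the lowest 3 of all 12. Ndufaf7 differed by 0.66 ± 0.18 (adjusted p = 0.0776), while Sdhaf1 differed by 0.11 ± 0.12. In the dimmer probe set of Ndufaf7 the 2 groups overlapped. Without BD replicate 2, an array outside this comparison that adds to the shared spread, Cox7b (-0.45 ± 0.09), Cox8b (-1.91 ± 0.36) and Ndufb3 of complex I (-0.32 ± 0.08) fell in BD/SEW, with adjusted p of 0.0233, 0.0168 and 0.0475, where 4.0% of all genes passed. With sham replicate 3 and SEW replicate 2 left out as well, 10 members passed, where 8.16% of all genes did. The mean of the heart markers was lower in every BD/SEW array than in every sham array, and heart tissue and treatment cannot be told apart here.

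The interaction, the effect of brain death with the agonist minus its effect without it, passed for Sdhaf1 alone, where 0.95% of all genes passed. The brain-death difference of Sdhaf1 was 0.83 ± 0.12 with the agonist (BD/SEW against SEW) and -0.14 ± 0.12 without it (BD against sham). The interaction was 0.97 ± 0.16 (limma, adjusted p = 0.0209). The 4 groups of arrays show the source of the number, since the BD arrays read 10.83, 11.02 and 11.04 and the BD/SEW and sham arrays as above, with the SEW arrays alone low. The call held in 7 of 12 fits that left out 1 array. For Sdhaf4 the interaction was -0.72 ± 0.19 (adjusted p = 0.121) and for Ndufaf7 0.75 ± 0.26 (adjusted p = 0.251), neither of which passed. Comparisons that share the SEW arrays share their deviations, so the opposite signs of Sdhaf1 and Sdhaf4 in SEW against sham and in BD/SEW against SEW are not separate observations.

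The SEW arrays lay apart from the other 9 arrays in 8 members, 6 above and 2 below. Above were Sdhaf4, Ndufa8, Ndufa6, Ndufb8, the assembly factor Ndufaf5 and Cox6a1, where 8.09% of all genes had the SEW arrays above. Below were Sdhaf1 and Ndufaf4, a complex I assembly factor, where 3.62% of all genes had them below. The BD arrays were above in 1 member (the pseudogene Cox6c-ps1, against 0.556% of all genes), the BD/SEW arrays above in 1 (Ndufaf7, against 2.12%) and the sham arrays below in 1 (Ndufa4l2, against 1.79%). For Ndufaf7 the gap was narrow, with 8.61 in BD/SEW replicate 2 and 8.6 in BD replicate 3. In its dimmer probe set BD/SEW replicate 2 (7.05) lay below SEW replicate 2 (7.37) and sham replicate 3 (7.11). The genes of this paragraph were listed after their values were seen.

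Complex IV has tissue isoforms, and 1 of them, Cox8b, had the widest range of all members. Cox8b, the isoform of subunit 8 in rodent heart and skeletal muscle, was 7.77, 11.91 and 8 in the BD arrays, 8.84, 8.15 and 8.86 in the SEW arrays and 8.31, 7.98 and 9.4 in the BD/SEW arrays, against 11.07, 10.2 and 10.14 in the sham arrays. It was high in sham and in BD replicate 2, the arrays with high heart markers, and its range over the arrays was 4.14. Its fitted differences from sham were -1.24 ± 0.87 for BD, -1.85 ± 0.87 for SEW and -1.91 ± 0.87 for BD/SEW, none of which passed (adjusted p of 0.673, 0.206 and 0.282). Without BD replicate 2 all 3 passed, at -2.59 ± 0.41, -1.85 ± 0.36 and -1.91 ± 0.36, with adjusted p of 0.0105, 0.0161 and 0.0168. Fitted on the compared arrays alone, Cox8b passed in SEW against sham and in BD/SEW against sham.

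The left-out muscle isoform Cox6a2 had the same shape, at 6.73, 12.01 and 7.37 in the BD arrays, 6.31, 7.02 and 7.82 in the SEW arrays and 6.61, 6.61 and 8.55 in the BD/SEW arrays, against 11.04, 10.82 and 10.16 in the sham arrays. Cox7a1, the other left-out isoform of heart and muscle, did not: it was 8.53, 9.3 and 9.23 in the BD arrays, 10.05, 9.26 and 9.3 in the SEW arrays and 9.57, 9.48 and 9.22 in the BD/SEW arrays, against 8.8, 9.16 and 9.34 in the sham arrays. All groups of Cox7a1 overlap, and BD replicate 2 is not its highest array.

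The common isoforms Cox8a and Cox4i1 varied little between arrays. Cox8a, the common counterpart of Cox8b, was 11.76, 11.99 and 11.69 in the BD arrays, 12.07, 11.66 and 11.82 in the SEW arrays and 11.8, 11.81 and 11.77 in the BD/SEW arrays, against 11.97, 11.75 and 11.82 in the sham arrays. Cox4i1, the common isoform of subunit 4, ran from 12.77 to 13.06 over the BD arrays, 13.04 to 13.09 over SEW and 12.83 to 13.01 over BD/SEW, against 12.76 to 13.06 over sham. Cox4i2, the lung isoform of subunit 4, which is tied to the oxygen response in other studies, was 8.25, 8.29 and 8.62 in the BD arrays, 8.7, 8.1 and 8.53 in the SEW arrays and 8.8, 8.48 and 8.65 in the BD/SEW arrays, against 8.49, 8.26 and 8.76 in the sham arrays. All groups of these 3 genes overlapped with sham.

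**Figure D4:**
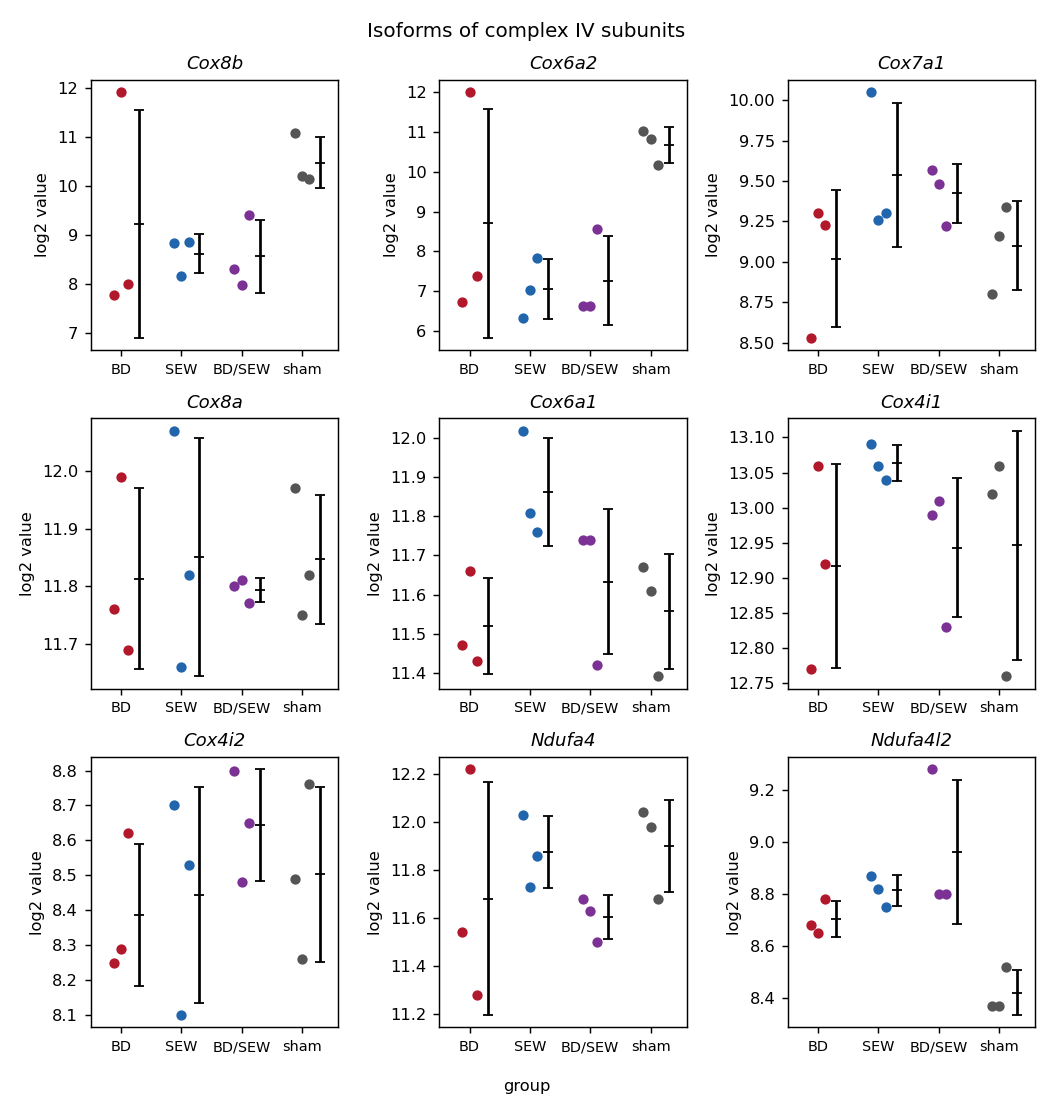
Log2 value of each array by group for isoforms of complex IV and related paralogs, one panel per gene with its own scale and the mean and SD of each group (n = 3) beside the points. Cox8b and the left-out Cox6a2 are high in sham and highest in BD replicate 2 (11.91 and 12.01), and Cox8a and Cox4i1 span less than 0.5 log2 units.

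Genes that act with the chain were counted in the same way. Of 20 measured genes for other assembly steps, cytochrome c and carriers, 0 passed in limma in the comparisons other than BD/SEW against SEW. Of all genes 0.0141% to 5.84% passed in these. From 0 to 5 of the 20 had an unadjusted p under 0.05 there, against 5.44% to 25.65% of all genes. In BD/SEW against SEW Sco1, which delivers copper to complex IV, rose by 0.56 ± 0.15 (adjusted p = 0.0421), while Bcs1l, which inserts the Rieske protein into complex III, fell (-0.70 ± 0.16, adjusted p = 0.0187) and Cox19, a complex IV assembly protein, fell (-0.38 ± 0.11, adjusted p = 0.0469). These are 3 of 20 genes (15%), against 9.79% of all genes. Of 15 genes of the tricarboxylic acid cycle and pyruvate dehydrogenase and of 15 genes of fatty acid oxidation, 0 passed in any of the 6 comparisons by limma. Of all genes 13.4% passed in at least 1. At most 2 of the first list had an unadjusted p under 0.05, in SEW against sham, against 25.65% of all genes. At most 4 of the second had one, in BD/SEW against SEW, against 23.8% of all genes. In BD/SEW against SEW their medians were -0.16 and -0.14, beside -0.12 for the members.

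Among 12 genes of mitochondrial biogenesis and transcription, 2 passed in SEW against sham (16.7%, against 5.84% of all genes), 3 in BD/SEW against SEW (25%, against 9.79%) and 1 in the interaction (8.33%, against 0.95%). With lists this short, 1 gene moves such a share by 8.33 percentage points, and Esrra is in all 3 counts. Esrra encodes a nuclear receptor that acts on many respiratory chain genes, and it was 9.11, 9.22 and 9.34 in the BD arrays, 8.99, 8.93 and 8.75 in the SEW arrays and 9.68, 9.64 and 9.47 in the BD/SEW arrays, against 9.36, 9.21 and 9.55 in the sham arrays. The SEW arrays were its lowest 3. It fell in SEW against sham (-0.48 ± 0.12, adjusted p = 0.0399), rose in BD/SEW against SEW (0.71 ± 0.12, adjusted p = 0.00317) and had an interaction of 0.86 ± 0.17 (adjusted p = 0.0393). Tfb1m, a methyltransferase of mitochondrial ribosomal RNA, rose in SEW against sham (0.61 ± 0.15, adjusted p = 0.0422) and fell in BD/SEW against SEW (-0.78 ± 0.15, adjusted p = 0.00739). Polrmt, the mitochondrial RNA polymerase, fell in BD/SEW against SEW (-0.72 ± 0.16, adjusted p = 0.016). The mean of the 12 genes was 8.34, 8.47 and 8.32 in the BD arrays, 8.53, 8.54 and 8.53 in the SEW arrays and 8.37, 8.35 and 8.34 in the BD/SEW arrays, against 8.53, 8.60 and 8.56 in the sham arrays. In this mean all arrays of brain-dead rats lay below all arrays of the others, BD replicate 2 included. That is a description with no test, and the share of all genes split in this way was not counted. The mean covers mixed directions: 3 of the 12 genes were higher in BD against sham and 5 in BD/SEW against SEW. The lists and their members were chosen with earlier results of these data known.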

How the data were processed

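RNA from the 12 lungs was hybridised from 6 ug of total RNA each, per the labels' protocols. The authors deposited log2 values per probe set, rounded to 2 decimals. Per the submitters' processing notes RMA, MAS5 and affy were used, with neither version nor role given. Precision is limited by the number of arrays, and no read depth applies. Array medians lay between 7.34 and 7.41, and the values differed by at most 0.22 at any rank.

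Of 31042 probe sets, the platform annotation gave 1 symbol to 20826, several to 436 and none to 9780, and 20758 of the first matched RefSeq (GRCr8). The probe set with the highest mean stood for a gene. All 14217 genes were fitted with limma 3.58.1 in R 4.3.3, with a mean per group over all 12 arrays and a mean trend in the variance. P-values were two-sided and adjusted by the Benjamini-Hochberg method over all genes, and a gene passed under 0.05. The script was tested on simulated data with 200 changed genes.

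Named in each comparison were the members that passed. Further members were drawn from the 2 members of each complex with the smallest p and from the isoform genes of complex IV. The highest, lowest and most variable member of a complex were also open to choice. Not all of these are shown in each comparison. Called genes of the pathway lists were added, and others are said to have been chosen after their values were seen. The members and lists were chosen with earlier results of these data known. Alternatives were fits of the compared arrays, array weights, no trend, dim genes left out, array centring, another probe set rule, other thresholds, heart and adipose covariates, the replicate block and each array left out. A fit without BD replicate 2, sham replicate 3 and SEW replicate 2 was chosen after seeing the data.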

Additional observations from a re-analysis of the deposited data

Results flagged for a closer look

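Sdhaf1, the assembly factor of succinate dehydrogenase, had a brain-death difference that was not the same with and without the agonist, by the test of the interaction itself (0.97 ± 0.16, limma, adjusted p = 0.0209). It was higher in 3 of 3 BD/SEW arrays than in any SEW array, whereas the BD and sham arrays overlapped. In 12 fits that each left out 1 array, its adjusted p ran from 0.0199 to 0.0694, and with the adipose covariate it was 0.083.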

How the results depend on the processing

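Of 226 values of the counts and medians under alternatives, 192 stayed within the spread or within 1.5 times the count. Some of these were fixed in advance. The compared arrays alone, no mean trend and the replicate block leave every fitted difference, and so every median, unchanged. Members that passed, and the member with the smallest p in each comparison, kept the sign of their difference. The signs of other named genes were not followed in this way. At an adjusted p under 0.01, calls numbered 1 for SEW against sham, 2 for BD/SEW against SEW and 0 for the interaction. With the heart covariate, SEW against sham had 0 calls and a median of 0.271, and BD/SEW against sham a median of 0.127. With the adipose covariate, BD against sham had a median of 0.151, SEW against sham 0 calls and 0.341, BD/SEW against sham 0.215 and the interaction 0 calls and -0.308. BD/SEW against sham gained 3 calls with the compared arrays alone, 9 with array weights, 1 with no mean trend (Ndufa4l2) and 1 with dim genes left out. Without the 3 arrays together, BD against sham had 11 calls and a median of -0.23, BD/SEW against BD a median of 0.137, BD/SEW against sham 10 calls and the interaction a median of 0.099. Next, 1 array of the compared groups was left out in turn. Calls for BD against sham then ran from 0 to 2 (2 without BD replicate 2) and medians from -0.176 to 0.042. For SEW against sham calls ran from 1 to 3 (1, Sdhaf1, without SEW replicate 1 or 2 or sham replicate 2 or 3) and medians from -0.004 to 0.07. For BD/SEW against BD there were 0 calls, with medians from -0.125 to 0.137. BD/SEW against SEW kept 2 to 4 calls (2 without BD/SEW replicate 1), with medians from -0.143 to -0.075. BD/SEW against sham had 0 calls, with medians from -0.097 to -0.036. Leaving out BD replicate 2, an array outside the comparison, is not in these ranges. In that fit Cox7b, Cox8b and Ndufb3 passed in BD/SEW against sham, and Cox8b was added to the calls of SEW against sham. The interaction had 0 or 1 call (0 without sham 2, BD 1, SEW 3, BD/SEW 1 or BD/SEW 2), with medians from -0.166 to 0.054. The cause of these changes was not tested. The labels do not say what a shared replicate number stands for. Of 18 same-numbered pairs of arrays from different groups, 8 had deviations correlated above 0.1, and all 18 ran from -0.186 to 0.375. The highest of these was sham 3 and BD 3. Pairs with different numbers ran from -0.429 (sham 1 and BD 3) to 0.288 (sham 1 and BD 2). The others of these above 0.1 were BD 2 and BD/SEW 3 (0.202), BD 2 and SEW 3 (0.166) and SEW 2 and BD/SEW 1 (0.12). A larger share of the same-numbered pairs was thus above 0.1. Whether same-numbered arrays shared a batch was not tested. The replicate block gave 0, 3, 0, 4, 0 and 1 calls over the 6 comparisons and changed no call. Its medians were -0.045, 0.04, -0.013, -0.123, -0.053 and -0.065. Each replicate number occurs once in each group, so these medians had to equal those of the main fit.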
